A study of Mus musculus with 27 samples.

Results

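The genes of the globin chains of mouse haemoglobin were followed from embryonic to adult heart: Hba-x, Hba-a1 and Hba-a2 of the alpha cluster, and Hbb-y, Hbb-bh1, Hbb-bs, Hbb-bt, Hbb-b1 and Hbb-b2 of the beta cluster. They were chosen by name, 9 genes in all. The bulk table, of 24025 genes, listed 8 of them (not Hbb-bt), and the single-cell table, of 19010 genes, listed 7 (not Hbb-b1 or Hbb-b2). Single-cell barcodes were split by the percentage of their UMIs (unique molecular identifiers, each a counted RNA molecule) that came from globin genes: 984 of 2555 barcodes of one library and 1280 of 3464 of the other held 20% or more.

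The study compared C57BL/6 mice with deletions at Hand2os1 (also Hand2as or Uph), a long non-coding RNA gene beside the cardiac transcription factor gene Hand2. Allele F is a deletion of all of Hand2os1, and allele D is a deletion of its 3′ distal part alone. Ages of embryos are in days of gestation, as E11.5. Bulk poly(A) RNA was measured in E11.5 whole hearts (3 libraries of F/+, 3 of F/F), in ventricles at E16.5 (3 of each) and in cardiomyocytes at 8 weeks (5 +/+, 2 D/+ and 6 D/D). Embryonic bulk controls therefore carried 1 copy of allele F and no +/+ embryo was measured in bulk. Droplet single-cell libraries were made from trypsinised E11.5 hearts, sorted for living cells, with 6 hearts pooled for +/+ and 6 for F/F, so each genotype had 1 library.

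Bulk values were FPKM, read counts scaled by transcript length and library size. Columns summed to between 334194 and 586795 FPKM, and how many reads lie behind these values is unknown. The 6 E11.5 libraries all list Hand2os1 at 0. It was at 0.37 to 1.40 FPKM in F/+ and 0 in F/F at E16.5, and at 5.25 to 13.5 FPKM in 6 of 7 adult controls against 0 to 2.67 in D/D. The library labelled +/+ replicate 5 was the exception among the adult controls, at 0. In single cells Hand2os1 had 1 UMI in the library labelled +/+ and 9 in that labelled F/F, too few to check either label. Medians per barcode were 13408 UMIs in the first and 13409 in the second, and 18 barcode sequences occurred in both.

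Haemoglobin is a tetramer of alpha-like and beta-like chains, each holding a haem group, and it fills red blood cells. In the mouse the first red cells arise in the yolk sac, enter the circulation with their nuclei and mature there. These primitive cells use the zeta chain of Hba-x with the epsilon-y and beta-h1 chains of Hbb-y and Hbb-bh1, and they also make adult alpha chains. Red cells of the fetal liver and later of the bone marrow use Hba-a1 and Hba-a2 with the adult beta genes. Hbb-bs and Hbb-bt are the adult pair of the beta haplotype that C57BL/6 carries, and Hbb-b1 and Hbb-b2 are the symbols of the adult pair of another haplotype. Heart tissue holds red cells in its chambers and vessels, while heart muscle itself is not known for globin expression.

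Both clusters run from embryonic to adult genes in the direction of transcription. In GENCODE vM21 (build GRCm38) the alpha genes lie on the plus strand of chromosome 11, Hba-x at chr11:32276400-32278116, Hba-a1 at chr11:32283511-32284465 and Hba-a2 at chr11:32296489-32297298. The beta genes lie on the minus strand of chromosome 7, Hbb-y at chr7:103851749-103853216, Hbb-bh1 at chr7:103841637-103843164, Hbb-bs at chr7:103826534-103828096 and Hbb-bt at chr7:103812524-103813996. Each of the 7 has 3 exons. The coding sequence with its stop codon is 429 bases long in the alpha genes and 444 in the beta genes.

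How far the values of single genes can be trusted depends on how alike the copies are, and a stretch of 60 coding bases shows it. Capitals mark bases that differ, in the alpha genes over coding bases 351 to 410 counted from the start codon. For Hba-a1 and Hba-a2 they mark the only coding difference of that pair, and for Hba-x the 27 bases that differ from Hba-a1.
Hba-a1: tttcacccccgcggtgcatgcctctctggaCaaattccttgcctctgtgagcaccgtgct
Hba-a2: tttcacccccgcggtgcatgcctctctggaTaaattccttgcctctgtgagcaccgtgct
Hba-x: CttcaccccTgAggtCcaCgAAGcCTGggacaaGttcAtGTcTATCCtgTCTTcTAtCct

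The matching stretch of the beta genes is their last 60 coding bases, 385 to 444. Capitals mark the only coding difference of Hbb-bs and Hbb-bt, and in Hbb-y and Hbb-bh1 the 9 and 11 bases that differ from Hbb-bs.
Hbb-bs: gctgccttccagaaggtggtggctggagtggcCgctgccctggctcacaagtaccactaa
Hbb-bt: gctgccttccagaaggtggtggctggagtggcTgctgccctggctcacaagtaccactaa
Hbb-y: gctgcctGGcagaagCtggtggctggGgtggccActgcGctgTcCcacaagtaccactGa
Hbb-bh1: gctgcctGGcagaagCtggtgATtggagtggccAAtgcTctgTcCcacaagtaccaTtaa

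Over the whole coding sequence the adult pairs were each 99.8% identical. Of the 50-base words in the transcript, 67.5% of those of Hba-a1 and 86.9% of those of Hba-a2 also occurred in the other copy. For Hbb-bs and Hbb-bt the figures were 65.8% and 58.3%. No 50-base word was shared between other pairs: Hba-x was 62.0% identical to Hba-a1, Hbb-y 76.4% identical to Hbb-bh1 and 74.3% to Hbb-bs. Reads of the embryonic genes can therefore be told apart by sequence, while the division of reads within an adult pair depends on how the counting treated reads that match both. Adult copies are given below both singly and as sums.

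The promoters differ in their motifs as well, but no single motif set the embryonic genes apart from the adult ones. Shown are the 110 bases before the RefSeq start (GRCm38.p6 table) of an embryonic and an adult gene of each cluster, with motifs in capitals: the CACCC box, the CCAAT box, GATAA (the core site of GATA factors) and the TATA box in the form TATAA or the form CATAAA. Both strands were searched, and no 2 motifs overlapped.
Hba-x: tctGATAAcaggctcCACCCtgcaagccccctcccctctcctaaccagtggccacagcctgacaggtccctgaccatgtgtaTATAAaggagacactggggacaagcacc
Hba-a2: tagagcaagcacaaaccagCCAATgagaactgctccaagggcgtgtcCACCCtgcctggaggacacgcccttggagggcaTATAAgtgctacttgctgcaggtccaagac
Hbb-y: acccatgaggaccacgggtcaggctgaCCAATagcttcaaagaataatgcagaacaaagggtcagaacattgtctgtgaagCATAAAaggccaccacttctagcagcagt
Hbb-bs: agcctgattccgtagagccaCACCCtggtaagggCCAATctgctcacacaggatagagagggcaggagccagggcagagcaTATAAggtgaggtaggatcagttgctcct

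These windows lie at chr11:32276490-32276599 and chr11:32296382-32296491 on the plus strand and at chr7:103853208-103853317 and chr7:103827929-103828038 on the minus strand. CACCC began 95, 63 and 90 bases before the start in Hba-x, Hba-a2 and Hbb-bs, and no match lay in the window of Hbb-y. CCAAT began 91, 83 and 76 bases before the start in Hba-a2, Hbb-y and Hbb-bs, with no match in that of Hba-x. Of 32851 promoter windows of this length in the table, the share was 29.6% for CACCC, 20.2% for CCAAT, 10.9% for TATAA, 9.43% for GATAA and 4.76% for CATAAA, so a match alone describes many genes. The 300-base entries of Hba-a1 and Hba-a2 were identical at 297 of 297 bases once shifted by 3. The table held 6 of the 9 genes, the missing ones being Hbb-bh1, Hbb-b1 and Hbb-b2.

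Globin RNA was abundant in E11.5 hearts, low in E16.5 ventricles and lower still in adult cardiomyocytes. The 6 E11.5 libraries held a median of 81077 FPKM of globin in all, the 6 E16.5 libraries 3114 and the 13 adult libraries 109, so the medians differed 26.0-fold and then 28.6-fold. As a share of all FPKM, globin took 20.1%, 10.4% and 29.7% in F/+ replicates 1 to 3 and 17.0%, 10.7% and 20.1% in F/F at E11.5. At E16.5 it took 0.819%, 0.651% and 0.835% in F/+ and 2.42%, 2.27% and 0.998% in F/F, and in adult cells at most 0.0596%. Stage went together with the tissue taken (heart, ventricle or isolated cardiomyocytes), the 2 cannot be told apart, and levels by stage are given as a description with no test. In these bulk samples fewer red cells and less RNA per red cell cannot be told apart.

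**Figure D1:**
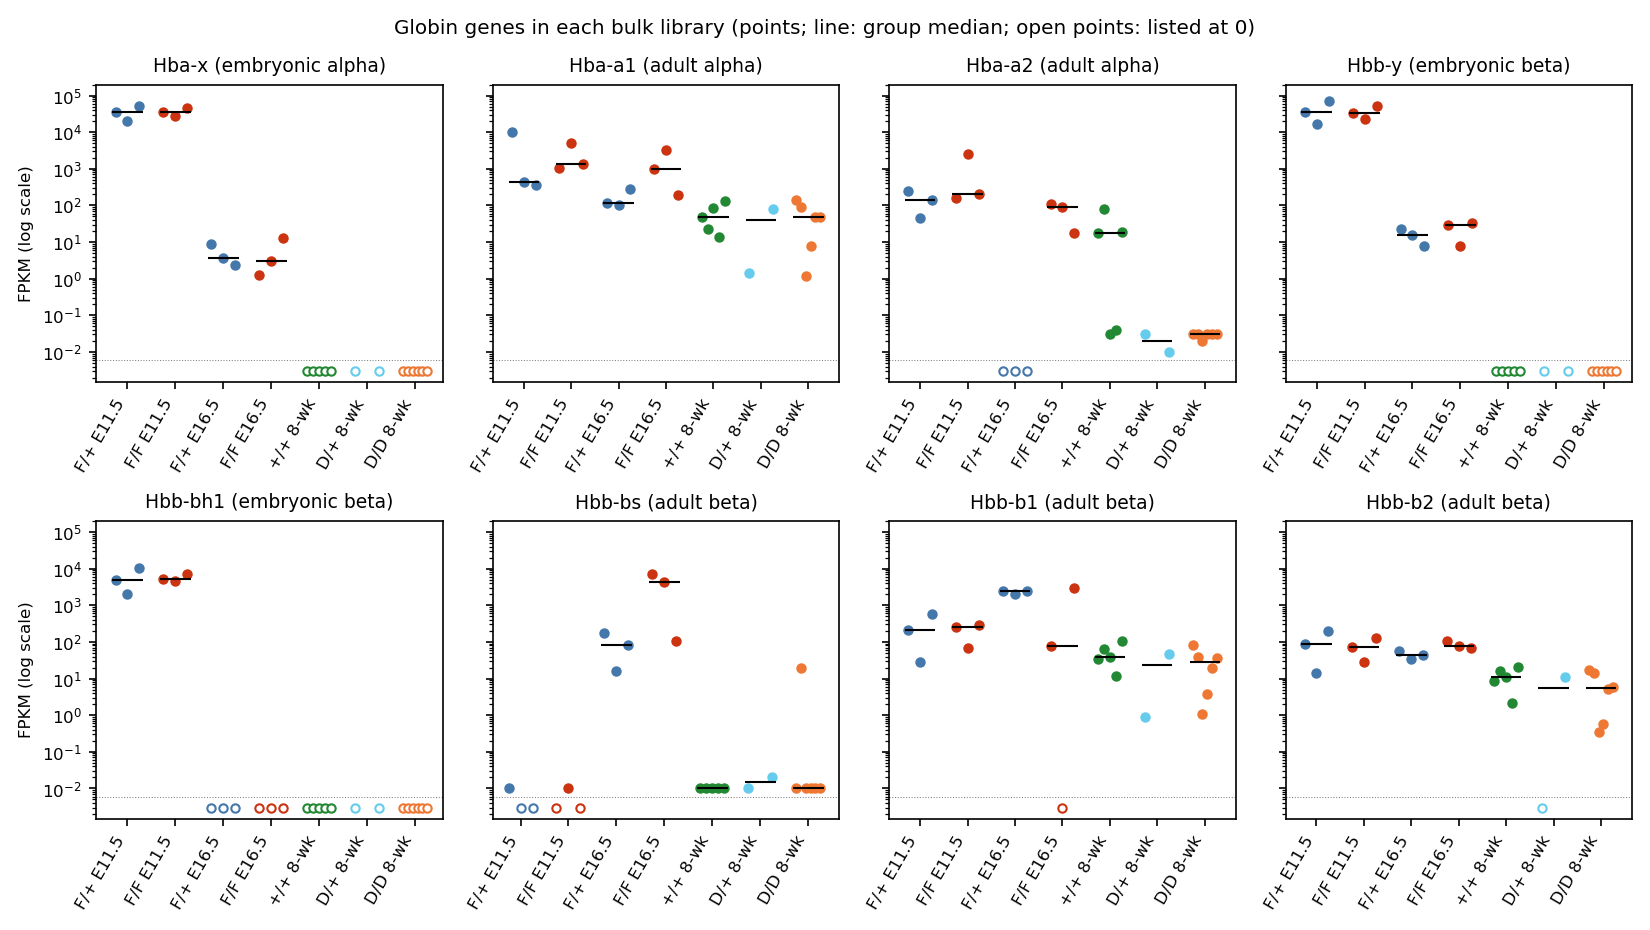
FPKM of each globin gene in each bulk library by stage and genotype, on a log scale, 1 point per library. The embryonic genes Hba-x, Hbb-y and Hbb-bh1 stand highest at E11.5 and are listed at 0 in all 13 adult libraries.

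Hba-x, the embryonic alpha-like gene, had 36381, 20257 and 53191 FPKM in F/+ and 35299, 27889 and 45978 FPKM in F/F at E11.5. At E16.5 it had 9.11, 3.71 and 2.31 FPKM in F/+ and 1.30, 3.01 and 12.9 in F/F. All 6 later libraries were lower than all 6 earlier ones, with medians 10667-fold apart, and F/+ and F/F overlapped at both stages. All 13 adult libraries listed Hba-x at 0.

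Hbb-y, the main embryonic beta-like gene, had 34747, 16316 and 70870 FPKM in F/+ and 33155, 22549 and 51457 FPKM in F/F at E11.5. At E16.5 the values were 22.4, 15.5 and 8.04 FPKM in F/+ and 29.3, 7.78 and 33.9 in F/F. The stages did not overlap and their medians were 1794-fold apart, while the genotypes overlapped at each stage. Hbb-bh1, the other embryonic beta-like gene, had 4913, 1975 and 10631 FPKM in F/+ and 5325, 4681 and 7021 FPKM in F/F at E11.5. It was listed at 0 in all E16.5 libraries, where Hbb-y was still above 0 in all 6. Hbb-y was listed at 0 in all 13 adult libraries, as was Hbb-bh1.

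As a sum, the adult beta genes went the other way between the embryonic stages. Singly, Hbb-bs was higher in all E16.5 libraries, while Hbb-b1 and Hbb-b2 overlapped between stages. The median of Hbb-b2 was 80.1 FPKM at E11.5 and 62.2 at E16.5. The adult beta sum was 305, 42.9 and 756 FPKM in F/+ and 325, 96.9 and 419 in F/F at E11.5. At E16.5 it was 2628, 2057 and 2539 FPKM in F/+ and 7124, 4387 and 3141 in F/F, all above every E11.5 library, with medians 9.16-fold apart. In the adult cells the sum ranged from 0.93 to 129.9 FPKM. Embryonic genes thus made up 99.1% to 99.8% of beta-globin FPKM at E11.5, 0.177% to 1.07% at E16.5 and 0% at 8 weeks. The E16.5 share rests on Hbb-b1 and Hbb-b2, the symbols of the other haplotype: the group means were 0.635% in F/+ and 0.551% in F/F with them and 23.2% and 8.28% without.

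The adult alpha genes followed no such order. Their sum was 10485, 476 and 498 FPKM in F/+ and 1220, 7731 and 1573 in F/F at E11.5. At E16.5 it was 116, 100.6 and 276 FPKM in F/+ and 1101, 3361 and 214 in F/F, so the stages overlapped. Hba-x made up 77.6%, 97.7% and 99.1% of alpha-globin FPKM in F/+ and 96.7%, 78.3% and 96.7% in F/F at E11.5. F/+ replicate 1 and F/F replicate 2 stood apart from the other E11.5 libraries in this share, as in the adult alpha sum. At E16.5 the share was 0.0895% to 7.26%.

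Counted by gene, 3 of the 8 listed were lower in all E16.5 than in all E11.5 libraries (Hba-x, Hbb-y and Hbb-bh1) and 1 was higher (Hbb-bs). Of 11423 genes, 26.6% were lower and 15.7% higher in this sense, so these counts say little by themselves, and the sizes of the differences carry the description. From E16.5 to adult cells 3 of 8 were lower in all libraries (Hba-x, Hbb-y and Hbb-b2), against 35.3% of 10932 genes, and none was higher, against 16.6%.

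Alpha and beta chains are needed in equal amounts, but their FPKM were not equally balanced at each stage. The ratio of alpha to beta FPKM was 0.653 to 1.30 at E11.5, 0.0473 to 0.109 in F/+ and 0.0716 to 0.765 in F/F at E16.5, and 0.845 to 1.90 in adult cells. The low ratio at E16.5 was seen in 5 of 6 libraries, F/F replicate 2 being the exception at 0.765. FPKM of near-identical copies depends on how shared reads were counted, and its part in this ratio was not tested.

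Homozygous loss of Hand2os1 at E11.5 came with no change in any globin gene past the test. Fits used limma on log2(FPKM + 1) over the 11491 genes whose mean reached 1 FPKM, and a gene was called at a Benjamini-Hochberg adjusted p under 0.05. None of the 7 globin genes tested was called, against 0.0087% of all genes, and none had a limma p under 0.05 before adjustment, against 4.37%. Hbb-bs, at 0 to 0.01 FPKM, was under the minimum. Since the labels do not say that libraries came from separate animals, p-values measure the spread between these samples only.

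The log2 difference, F/F minus F/+, was 0.07 ± 0.34 (SE, limma) for Hba-x, -0.02 ± 0.48 for Hbb-y and 0.25 ± 0.48 for Hbb-bh1, each with an adjusted p of 0.999. The 2 genotypes overlapped for all 3 embryonic genes. Hba-a1 had 10236, 431 and 355 FPKM in F/+ and 1065, 5137 and 1371 in F/F, a log2 difference of 0.75 ± 1.08 in limma. Hba-a2 had 249.5, 45.2 and 143 FPKM in F/+ and 155, 2594 and 202 in F/F, a difference of 1.87 ± 0.93 (limma adjusted p = 0.999). With each library left out in turn, the difference of Hba-a2 ranged from 0.58 to 2.61. These 2 adult alpha genes overlapped between genotypes, as did the adult beta genes Hbb-b1 (0.16 ± 0.89) and Hbb-b2 (0.03 ± 0.80). Scaling the libraries to the total without globin moved the median of all genes by -0.33 on the log2 scale. Median-ratio scaling moved that median by -0.01. The columns, globin included, already differed in sum, at 376930 to 457462 FPKM in F/+ and 442355 to 586795 in F/F. Relative to other genes, then, these differences depend on the scaling chosen. The part of globin in the shift of -0.33 was not tested.

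The libraries with the most adult alpha RNA were those with the most RNA of hepatocyte markers. The summed FPKM of 6 hepatocyte markers (Afp, Alb, Apoa1, Apoa2, Serpina1a and Ttr) was 224 in F/+ replicate 1 and 466 in F/F replicate 2, and 0.6 to 44.5 in the other 4 E11.5 libraries. Alb, which encodes serum albumin, had 19.7 and 21.2 FPKM in these 2 libraries and 0 to 1.15 in the others. All 6 markers were above 0 in these 2 libraries, and in 2 of the other libraries 4 or 5 of the 6 were listed at 0. Megakaryocyte markers summed to 222 FPKM in F/F replicate 2 and 83.4 to 102 elsewhere. The adult beta sum was not the highest in these 2 libraries. It was 305 FPKM in F/+ replicate 1, against 42.9 and 756 in F/+ replicates 2 and 3. In F/F replicate 2 it was 96.9 FPKM, against 325 and 419 in F/F replicates 1 and 3. The part of liver RNA in the adult alpha values was not tested. Without both libraries, a choice made after seeing the data, the log2 difference of Hba-a1 was 1.62 (limma adjusted p = 0.111), Hbb-y turned to 0.28, and no globin gene was called.

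**Figure D2:**
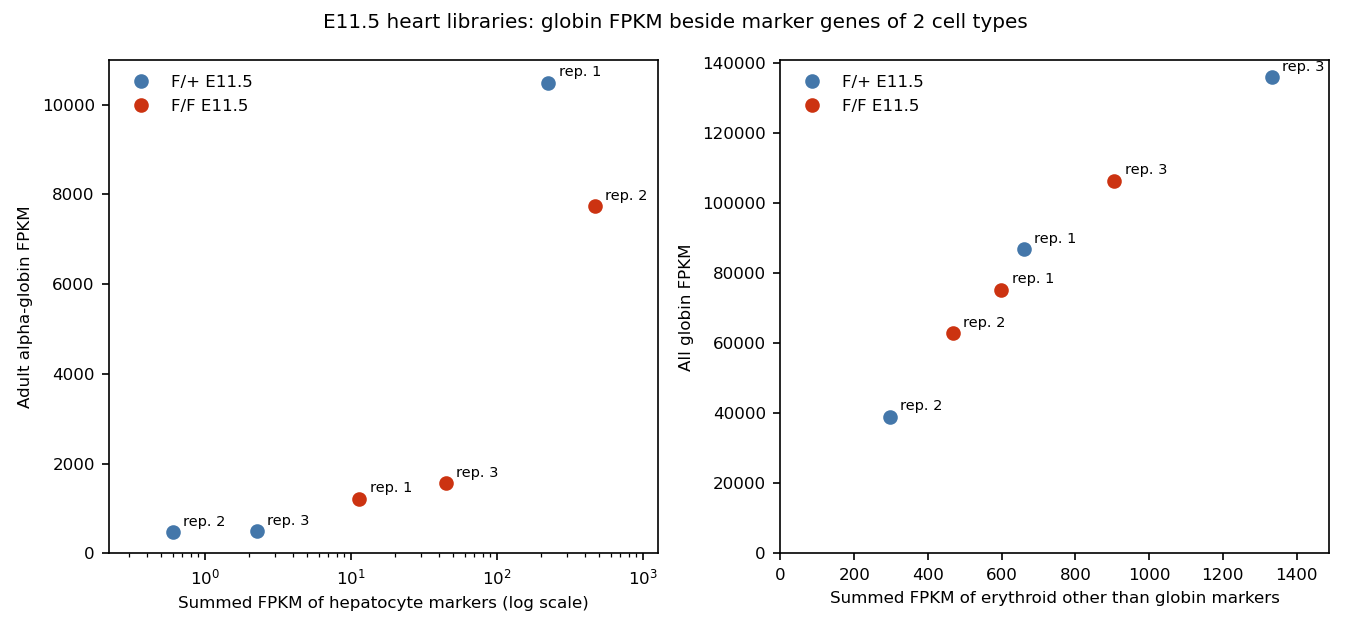
E11.5 heart libraries, 1 point each: left, adult alpha-globin FPKM against the summed FPKM of hepatocyte markers (log scale). Right, all globin FPKM against the summed FPKM of erythroid genes other than globin; the 2 libraries with over 200 FPKM of hepatocyte markers hold the most adult alpha-globin but not the most globin in all.

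Red cell genes that are not globins varied with the globin sum at E11.5. The erythroid list other than globin summed to 660, 297 and 1333 FPKM in F/+ replicates 1 to 3, against globin sums of 86831, 39067 and 135946 FPKM. In F/F it ranged from 467 to 905 FPKM, and the genotypes overlapped. Slc4a1, the band 3 anion exchanger of the red cell membrane, had 333, 147 and 691 FPKM in F/+ and 299, 232 and 477 in F/F. The order of the 3 F/+ libraries was the same for Slc4a1, the erythroid list and summed globin. The 8 cardiomyocyte markers summed to 11383 to 13069 FPKM in F/+ and 13973 to 15829 in F/F, so the F/F libraries were higher in all 3, and the part of this in globin values was not tested.

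The genes that work with globin in the red cell gave no call at E11.5 either. Of 14 erythroid regulators 14 were tested, 7 had a log2 difference above 0 and the median was -0.01. Of 14 genes of haem synthesis and iron import 6 were above 0 with a median of -0.07, and of 13 tested genes of red cell membrane and metabolism 4 were above 0 with a median of -0.03. The median of all genes was 0.02. The smallest limma p among them was that of Slc11a2, an iron transporter, with 14.3, 12.4 and 14.0 FPKM in F/+ and 7.66, 8.92 and 11.4 in F/F. All 3 F/F values were lower, which held for 4.31% of all genes (the opposite order held for 4.93%), and the log2 difference was -0.51 ± 0.22 (limma adjusted p = 0.999). Within the list of regulators the smallest p belonged to Lmo2 (-0.35) and Klf2 (0.26).

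At E16.5 no globin gene passed the test, although 2 of the 7 tested, Hba-a2 and Hbb-b2, were higher in all 3 F/F than in all 3 F/+ ventricles. Of 10699 genes tested 3.9% were higher without overlap, and 0.00935% were called. Before adjustment 4 globin genes, all of the adult kind and all higher in F/F, had a limma p under 0.05, against 1.63% of genes. These were the near-identical Hba-a1 and Hba-a2 and the adult beta symbols Hbb-bs and Hbb-b2, which may not be separate measurements. Hbb-bh1, at 0 throughout, was not tested.

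Hba-a2 was listed at 0 in all 3 F/+ libraries and had 111, 88.5 and 17.7 FPKM in F/F. The groups did not overlap, and the log2 difference was 5.84 ± 0.59 (limma adjusted p = 0.0652). With a pseudocount of 0.1 in place of 1 Hba-a2 was called (limma adjusted p = 0.00361), as it was without F/F replicate 3 (limma adjusted p = 7.6e-06). Its near-identical copy Hba-a1 had 116, 100.6 and 276 FPKM in F/+ and 990, 3272 and 197 in F/F. F/F replicate 3 lay inside the F/+ range, and the difference was 2.53 ± 0.91 (limma adjusted p = 0.9999). Summed, the adult alpha pair differed by 2.64 ± 0.89 (limma adjusted p = 0.9999). With each library left out in turn, this sum ranged from 1.71 to 3.69 and Hba-a1 from 1.57 to 3.60.

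The adult beta genes were divided between symbols in a different way from library to library. Hbb-bs had 174, 15.9 and 81.2 FPKM in F/+ and 6943, 4309 and 106 in F/F, and Hbb-b1 had 2399, 2007 and 2414 in F/+ and 75.9, 0 and 2966 in F/F. In F/F replicates 1 and 2 Hbb-bs was high and Hbb-b1 low, and in F/F replicate 3 and all F/+ libraries the reverse held. As a share of adult beta FPKM, Hbb-bs took 97.5%, 98.2% and 3.37% in F/F and 0.774% to 6.61% in F/+. The log2 differences were 4.56 ± 1.55 for Hbb-bs and -5.21 ± 2.40 for Hbb-b1, both with a limma adjusted p of 0.9999. With each library left out in turn, Hbb-bs ranged from 3.44 to 6.45 and Hbb-b1 from -8.01 to -2.25. Whether this exchange is one of RNA or of read assignment was not tested.

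**Figure D3:**
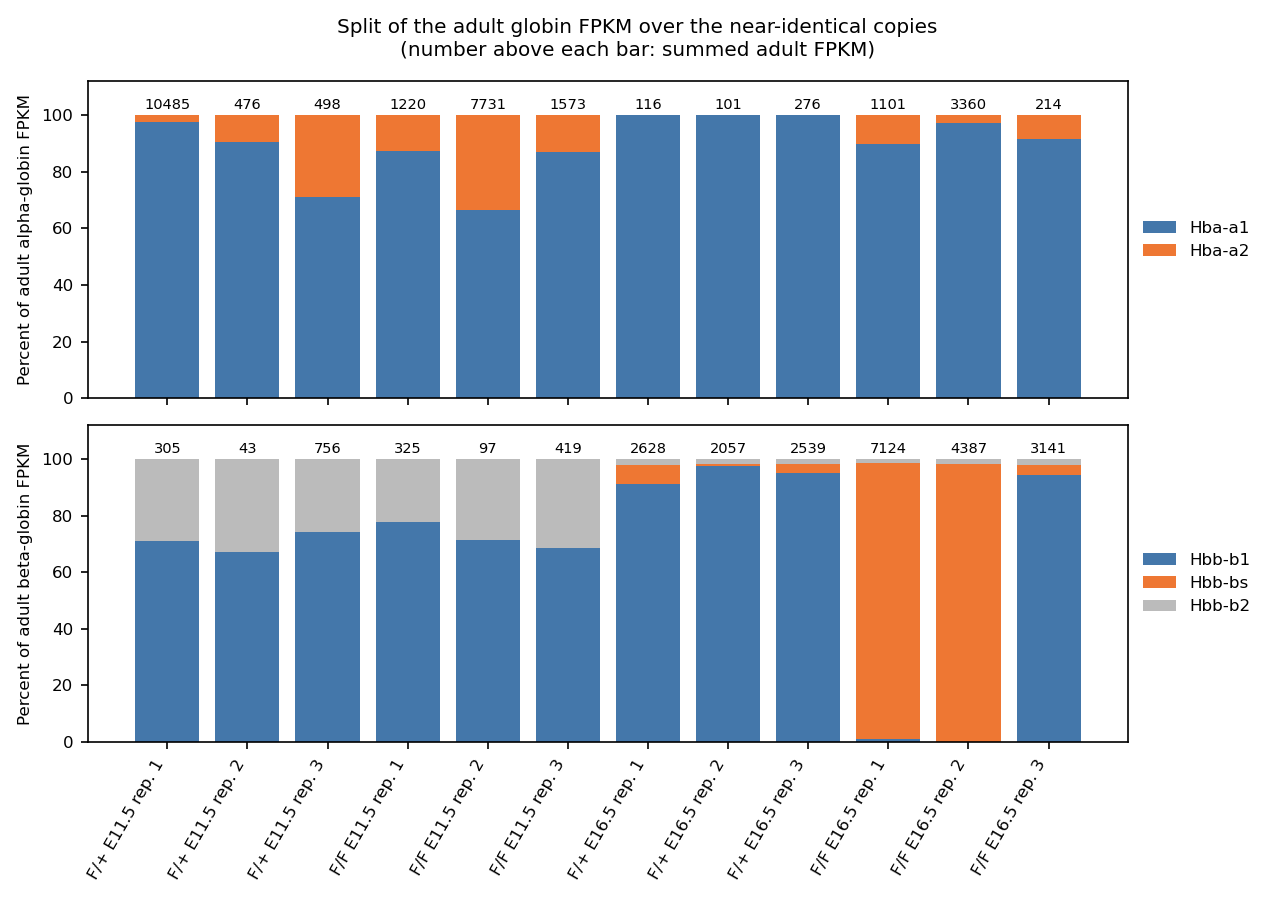
Percentage of adult alpha-globin FPKM (top) and adult beta-globin FPKM (bottom) listed under each gene symbol, 1 bar per embryonic library, with the summed adult FPKM above each bar. Hbb-bs makes up 97.5% and 98.2% of adult beta FPKM in F/F replicates 1 and 2 at E16.5, and Hbb-b1 most of it in the other libraries.

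Hbb-b2, the lesser adult beta symbol, had 55.2, 34.4 and 44.4 FPKM in F/+ and 104, 77.9 and 69.1 in F/F. Its groups did not overlap, and the log2 difference was 0.90 ± 0.20 (limma adjusted p = 0.9999). The adult beta sum given above was likewise higher in all 3 F/F libraries, by 0.95 ± 0.27 on the log2 scale (limma adjusted p = 0.9999). The embryonic genes left at this stage overlapped between genotypes, with -0.10 ± 0.66 for Hba-x and 0.47 ± 0.54 for Hbb-y in limma.

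Of 12 erythroid markers other than globin 3 reached the minimum level at E16.5 (Alas2, Slc4a1 and Tfrc), and none was called. The list summed to 21.2, 13.7 and 15.6 FPKM in F/+ and 37.7, 23.3 and 24.1 in F/F, with no overlap, most of each sum being Alas2 and Slc4a1. Alas2, the first enzyme of haem synthesis in red cells, had 14.4, 8.32 and 9.32 FPKM in F/+ and 26.2, 14.5 and 16.6 in F/F. Its log2 difference was 0.77 ± 0.25 (limma adjusted p = 0.9999). Slc4a1 had 4.30, 2.42 and 4.04 FPKM in F/+ and 7.60, 6.44 and 4.79 in F/F, a difference of 0.67 ± 0.22 (limma adjusted p = 0.9999). Tfrc, the transferrin receptor, overlapped between genotypes. Epor, the erythropoietin receptor, was under the minimum and went the other way, with 1.01, 0.69 and 0.72 FPKM in F/+ and 0.51, 0.23 and 0.66 in F/F. The part of red cell content in the globin values was not tested. Hepatocyte markers summed to at most 2.34 FPKM in any E16.5 library. All 3 F/F ventricle libraries and 1 of 3 F/+ had Y-linked RNA (4 genes summed, 1 FPKM or more), so sex went partly with genotype, and with a Y-linked covariate no globin gene was called either.

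All 3 tested genes of that erythroid list had a log2 difference above 0, with a median of 0.67. The other lists of red cell genes did not move one way together at E16.5. Of 9 erythroid regulators tested 2 had a log2 difference above 0 and the median was -0.07. Of 14 genes of haem synthesis and iron import 7 were above 0 with a median of -0.01, and of 9 membrane and metabolism genes 6 were above 0 with a median of 0.01. The median of all genes was 0.00. None of these genes was called. Klf1, the erythroid factor that binds CACCC in the adult beta promoter, was at 24.7 to 62.3 FPKM at E11.5 and at most 0.24 FPKM at E16.5.

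The effect of allele F was not shown to differ between the stages for any globin gene. The limma term for E16.5 against E11.5 called none of 8 globin genes, against 0.00875% of 11423 genes. For Hba-a2 the difference of effects was 3.97 ± 1.33 (limma adjusted p = 0.999) and for Hbb-bs 4.56 ± 1.69 (limma adjusted p = 0.999). For the 3 embryonic genes it lay between -0.25 and 0.49.

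In adult cardiomyocytes globin RNA was low and uneven between libraries, with no difference past the test between D/D and controls. The summed globin FPKM had a lowest value of 2.40, a median of 133 and a highest of 284 in the 7 controls, the highest being the library labelled +/+ replicate 5. In the 6 D/D libraries these were 2.62, 80.8 and 242. Both groups ranged over about the same span, and D/+ replicate 1 and D/D replicate 3 held almost none. The 8 cardiomyocyte markers summed to 39575 to 55577 FPKM in these 13 libraries. The erythroid list other than globin summed to 2.67 to 11.3 FPKM, and Slc4a1 was at most 0.06 FPKM.

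Of the 5 globin genes tested at 8 weeks none was called, as none of 10249 genes was in limma (0%). Before adjustment Hba-a2 alone of the 5 had a limma p under 0.05 (0.0467), against 175 of all genes (1.71%). Hba-a1 had a lowest value of 1.44, a median of 47.5 and a highest of 134.9 FPKM in controls and 1.18, 47.7 and 144 in D/D. The groups overlapped throughout, and the log2 difference, D/D minus controls, was -0.15 ± 1.03 in limma. Hba-a2 had 17.8, 81.9, 0.03, 0.04 and 19.1 FPKM in +/+, 0.03 and 0.01 in D/+ and 0.02 to 0.03 in D/D. It was thus above 0.04 FPKM in 3 libraries, all labelled +/+, and the log2 difference was -2.12 ± 0.97 (limma adjusted p = 0.9999). Relative to Hba-a1 in the same libraries Hba-a2 was either present at a sizeable share or listed near 0.

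Hbb-b1 ranged from 0.92 to 109 FPKM in controls and from 1.07 to 80.1 in D/D, a log2 difference of -0.69 ± 0.95 in limma. Hbb-b2 ranged from 0 to 20.5 and from 0.34 to 17.2 FPKM, a difference of -0.52 ± 0.77. Hbb-bs was 0.01 to 0.02 FPKM in every adult library but D/D replicate 2, which had 19.6. The groups overlapped for all 3 adult beta genes. Of the 9 regulators tested 6 were above 0 with a median of 0.04, of 13 haem and iron genes 3 with a median of -0.10, and of 9 membrane and metabolism genes 5 with a median of 0.01, against -0.01 over all genes. Cat, which encodes catalase, had the smallest p of these lists, with a log2 difference of 0.43 ± 0.19 (limma adjusted p = 0.9999).

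Genes that varied most like summed globin within groups were sought among 11423 genes, by Pearson's r between deviations from group means over the 12 embryonic libraries. The 5 closest were Mgst3 (0.914), Mkrn1 (0.914), Josd2 (0.912), Slc4a1 (0.910) and Ubxn4 (0.905). The globin genes themselves ranged widely when both stages were pooled. Their r was 0.849 for Hbb-b2, 0.785 for Hbb-bh1, 0.337 for Hbb-y, 0.294 for Hba-a1, -0.06 for Hba-x and -0.12 for Hbb-b1. At E11.5, however, Hba-x and Hbb-y followed the order of summed globin within F/+ and within F/F. At E16.5 Hba-x stood at only 1.30 to 12.9 FPKM and Hbb-y at 7.78 to 33.9. Alas2 had an r of 0.809. The 14 genes of haem synthesis and iron import ranged from 0.06 for Slc11a2 to 0.882 for Uros, another haem enzyme. The 14 erythroid regulators ranged from -0.76 for Ldb1 to 0.899 for Zbtb7a. These values describe 12 libraries that share the scaling to a total of which globin is part.

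Single cells showed which barcodes carried the globin RNA. In barcodes with 20% or more globin UMIs the median globin share was 61.8% in the library labelled +/+ and 59.7% in that labelled F/F, and in the others 1.35% and 1.48%. No barcode was free of it: the lowest shares were 0.732% and 0.864%. The highest barcodes under the limit had 19.7% and 18.6% and the lowest above it 20.1% and 20.7%. Few lay near it, with 8 and 12 barcodes at 15% to 25% and 33 and 32 at 5% to 40%.

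**Figure D4:**
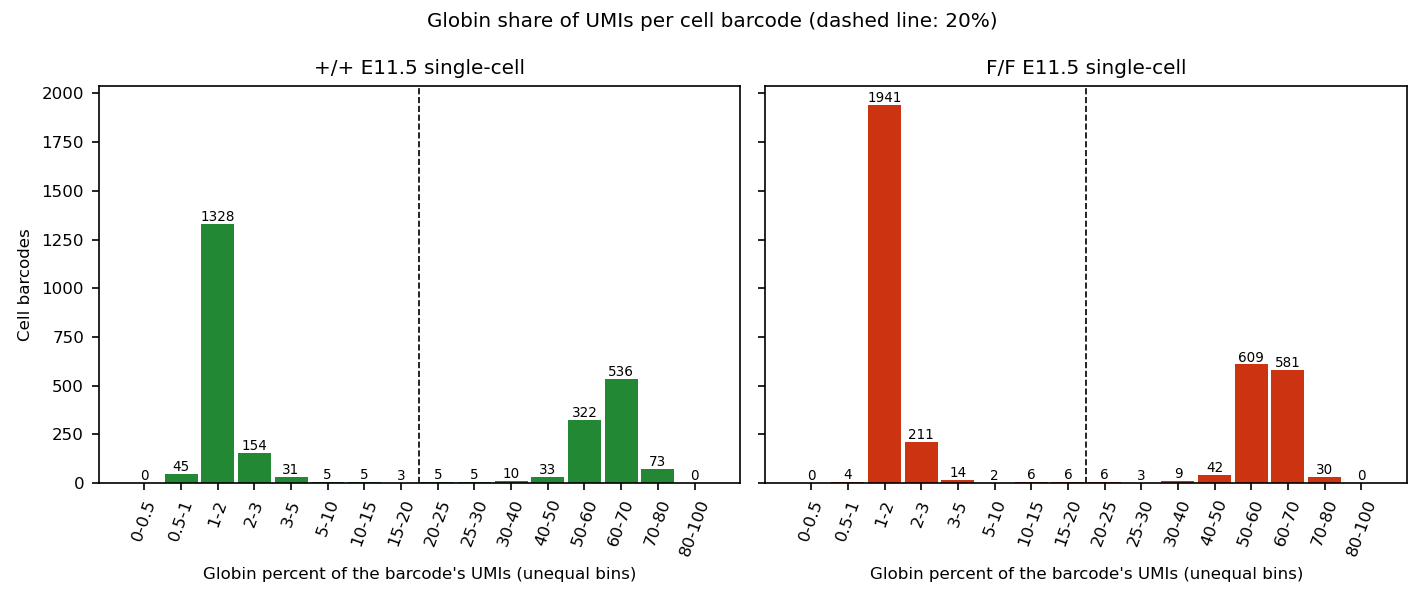
Number of barcodes by the percentage of their UMIs from globin genes, for the library labelled +/+ and that labelled F/F, with the 20% limit as a line. Barcodes fall into a group at about 1% to 2% and a group at about 60%, with 33 and 32 between 5% and 40%.

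Globin-rich barcodes were 38.5% of the first library (exact 95% binomial interval 36.6% to 40.4%) and 37.0% of the second (35.3% to 38.6%). Intervals here and below cover counting error only, and with 1 library per genotype there was no test. The globin-rich barcodes had fewer UMIs, with medians of 11183 and 11764 against 14244 and 14354 in the others. They also had fewer genes detected, 1329 and 1449 against 3518 and 3496.

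The label of red cells was checked on genes that the split did not use. In CPM of non-globin UMIs (UMIs per 1000000), the erythroid list other than globin summed to 7304 and 6787 in globin-rich barcodes and 151 and 137 in the others. Cardiomyocyte markers summed to 1661 and 2359 against 17808 and 19579, and macrophage markers to 3.89 and 9.76 against 102 and 113. The few barcodes near the limit were mixed: 20 and 18 barcodes with 20% to 40% globin held 10633 and 12223 CPM of cardiomyocyte and 2451 and 2159 CPM of erythroid markers. They carried 3848 of the 9812 cardiomyocyte marker UMIs of the globin-rich barcodes in the first library and 3544 of 18859 in the second. Klf1 stood at 491.5 and 490.4 CPM against 19.1 and 12.4, Gata1 at 129 and 138 against 10.8 and 5.46, and Tal1, a partner of Gata1, at 159.5 and 151 against 12.3 and 9.09. The 14 haem and iron genes summed to 8936 and 8637 against 439 and 429 CPM, Alas2 alone to 2114 and 1922 against 21.5 and 23.5.

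Of the regulators that silence embryonic globin in definitive red cells, Bcl11a and Sox6 were scarce in these barcodes and Zbtb7a was not. Bcl11a had 8 and 13 UMIs in all globin-rich barcodes, or 1.35 and 1.63 CPM of non-globin UMIs, against 31.5 and 22.2 in the others. Sox6 had 16 and 13 UMIs, and Myb, a factor of definitive progenitors, 1 and 3. Zbtb7a had 392 and 507 UMIs, or 66.4 and 63.4 CPM against 29.5 and 26.4. Klf2, which acts in primitive red cells, had 56 and 122 UMIs, a lower level than in the other barcodes (9.48 and 15.3 against 84.7 and 117 CPM).

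Of the 8763 other genes with at least 200 UMIs in both libraries, the 10 most confined to globin-rich barcodes included Gm2061, Gm14275, Rhd, Gm867, Hbq1b, Gm42749, Cfap57, Alas2 and Trim10. Hbq1b, a theta-like globin gene of the alpha cluster that was not among the 9 studied, had 570 and 789 UMIs, 96.0% and 96.3% of them in globin-rich barcodes. Rhd, a gene of the Rhesus blood group complex, had 96.6% and 96.4% there. For the 7 globin genes these figures were 95.2% to 96.9%, which the split itself fixed in large part, against medians of 12.4% and 13.1% over all genes.

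Within globin-rich barcodes Hbb-y was the most abundant globin RNA. It made up 46.1% of globin UMIs in the library labelled +/+ and 46.6% in that labelled F/F, or 275891 and 272228 CPM of all UMIs. Hba-x followed with 17.6% and 17.0%, Hbb-bh1 with 13.1% and 13.4%, Hba-a1 with 12.8% and 13.2% and Hba-a2 with 6.75% and 6.60%. The adult beta genes were the least, Hbb-bt with 3.05% and 2.83% and Hbb-bs with 0.507% and 0.447%. The order of the 7 genes was the same in both libraries.

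Between the libraries the levels differed little. The log2 ratio of CPM of all UMIs, F/F to +/+, was -0.09 for Hba-x, 0.005 for Hba-a1, -0.06 for Hba-a2, -0.02 for Hbb-y, -0.002 for Hbb-bh1, -0.14 for Hbb-bt and -0.22 for Hbb-bs (0.860-fold). None of the 7 passed a 1.25-fold difference, against 3.84% of 2656 genes higher and 2.82% lower. The adult beta pair was lower by a ratio of 0.901 in F/F. These ratios compare 2 libraries of 6 pooled hearts each, not the genotypes.

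Embryonic genes made up 94.3% of beta-globin UMIs in the first library and 94.8% in the second, and 47.4% and 46.1% of alpha-globin UMIs. Adult alpha RNA thus stood beside embryonic beta RNA in the same barcodes: adult exceeded embryonic alpha UMIs in 791 of 984 and 1128 of 1280 barcodes. Adult beta never exceeded embryonic beta, with 0 of 984 and 0 of 1280 barcodes, which allows shares of up to 0.305% and 0.234%. In bulk at E11.5 Hba-x took 77.6% to 99.1% of alpha FPKM, but UMIs and FPKM differ in length scaling and in the adult symbols listed, and the values are only set side by side. Likewise Hbb-bs, at 0 to 0.01 FPKM in bulk, had UMIs here, Hbb-bt was listed only here, and Hbb-b1 and Hbb-b2 only in bulk.

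Barcodes under 20% globin held a mixture close to it in some shares and apart in others. Embryonic genes made up 94.7% and 95.2% of their beta UMIs and 49.0% and 48.6% of their alpha UMIs. Alpha genes were 32.2% and 29.7% of their globin UMIs, against 37.2% and 36.7% in the globin-rich barcodes, and Hbb-y was 50.1% and 52.2% against 46.1% and 46.6%. The spread of the embryonic beta share between barcodes was close to counting error there (SD of 2.22 and 1.89 percentage points against 2.0 and 1.87 from counting). Hbb-y stood at 7373 and 8238 CPM of all UMIs in them. The part of free RNA in these UMIs was not tested, and they are not read as expression by these cells.

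**Figure D5:**
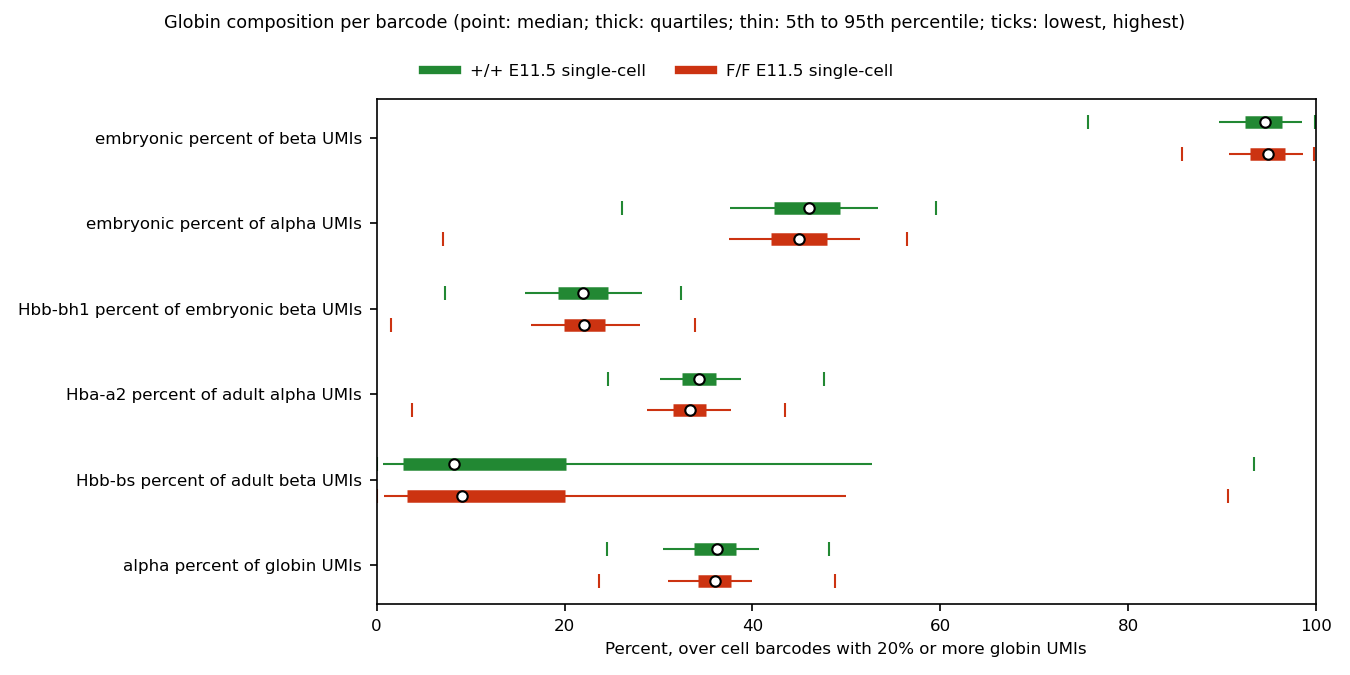
Composition of globin UMIs in each globin-rich barcode, for the library labelled +/+ and that labelled F/F, as distributions over barcodes of the embryonic share of beta and alpha UMIs and of related shares. The share of Hbb-bs in adult beta UMIs spreads most, with a standard deviation of 16.9 and 15.7 percentage points.

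Globin-rich barcodes differed from each other by more than counting error. The embryonic share of beta UMIs had a 5th to 95th percentile range of 89.7% to 98.5% in the first library and 90.7% to 98.6% in the second, with an SD of 2.76 and 2.46 percentage points against 0.366 and 0.348 from counting. The embryonic share of alpha UMIs had an SD of 4.95 and 4.64 against 1.08 and 1.07, and the share of Hbb-bh1 in embryonic beta UMIs (22.1% and 22.3%) an SD of 3.86 and 3.52 against 0.677 and 0.672. The share of Hba-a2 in adult alpha UMIs varied less, at 34.4% and 33.4% with an SD of 2.77 and 2.83 against 1.38 and 1.35.

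Barcodes that gave more of their UMIs to globin tended to have less embryonic globin. Pearson's r with the globin share was -0.32 and -0.23 for the embryonic beta share in +/+ and F/F. For the embryonic alpha share it was -0.38 and -0.25. With globin at 20% to 50%, 50% to 60%, 60% to 70% and 70% or more of UMIs, the first library had 53, 322, 536 and 73 barcodes. Their median embryonic share of beta UMIs was 96.5%, 95.8%, 94.0% and 92.3%, and of alpha UMIs 50.6%, 48.2%, 45.2% and 41.0%. The share of Hbb-bh1 in embryonic beta UMIs was 24.4%, 23.9%, 21.3% and 18.2% in the same order. In the second library, with 60, 609, 581 and 30 barcodes, the embryonic beta share was 95.6%, 95.5%, 94.4% and 92.2% and the Hbb-bh1 share 23.0%, 23.1%, 21.1% and 19.4%. The embryonic alpha share there was 46.0%, 46.6%, 43.3% and 39.8%. Neither it nor the Hbb-bh1 share fell between the first 2 bins of that library. Barcodes with more globin also had fewer UMIs and genes, with medians of 16987 UMIs and 2698 genes in the first bin and 8751 and 848 in the last of the library labelled +/+. The part of depth was not tested beyond thinning.

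Shares were related to each other to unequal degrees across barcodes. Pearson's r between the Hbb-bh1 share and the embryonic beta share was 0.53 over 984 and 0.46 over 1280 barcodes, both shares having embryonic beta UMIs in them. The embryonic beta share had an r of 0.26 and 0.20 with the embryonic alpha share, -0.19 and -0.20 with the Hba-a2 share of adult alpha UMIs and 0.06 and 0.08 with the Hbb-bs share of adult beta UMIs, all weak. The embryonic alpha share had an r of 0.51 and 0.48 with the number of genes detected. Over 4 equal groups of barcodes from the fewest to the most genes detected, its median was 42.1%, 44.6%, 47.3% and 49.8% in the first library and 42.1%, 43.6%, 45.6% and 48.5% in the second. These are descriptions over barcodes of 1 library each.

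The adult beta pair was divided very unequally between barcodes. Hbb-bs made up 14.3% and 13.6% of adult beta UMIs in all, with Hbb-bt the rest, but its median share per barcode was 8.20% and 9.04% and its 5th to 95th percentile range 0.632% to 52.7% and 0.798% to 50%. The SD was 16.9 and 15.7 percentage points against 2.90 and 2.96 from counting, over a median of 236 and 227 adult beta UMIs per barcode. Hbb-bs was over 50% in 61 barcodes (6.2%) and 63 (4.92%), and under 5% in 356 (36.2%) and 436 (34.1%). The copies differ at 1 coding base, shown above, and how UMIs that match both were treated was not tested.

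At the edges were a few barcodes of unlike composition, picked after seeing their values. A barcode of the library labelled F/F had Hba-x at 7.12% of alpha UMIs, with 8277 UMIs, 31.7% of them globin, and Hbb-bh1 at 1.57% of embryonic beta UMIs, while 99.8% of its beta UMIs were embryonic. In the library labelled +/+ the least embryonic barcode for beta had 75.8%, with 18594 UMIs, 51.2% of them globin and Hbb-bh1 at 7.25%. Hepatocyte markers summed to 116 CPM of non-globin UMIs in the globin-rich and 289 in the other barcodes of the library labelled +/+, and to 1.75 and 5.71 in that labelled F/F. In the globin-rich barcodes of the first library, those with 20% to 40% globin had 1644 CPM.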

How the data were processed

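The authors deposited a bulk table of FPKM for 25 libraries and a single-cell table of whole UMI counts. Per the submitters' processing notes, builds mm9 and mm10 and the tools CASAVA, TopHat, TopHat2 2.0.11 and Cell Ranger were used; the annotation and the treatment of multiply mapped reads are not given in the sources used here. The bulk header names no unit: FPKM was inferred from the values, and raw counts could not be recovered. Lines that repeated a symbol were identical and merged, and a gene lacking 1 value was dropped. Sequences come from GENCODE vM21 transcripts and the RefSeq promoter table (GRCm38), another build than that of the bulk files, and were matched by symbol.

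Fits used limma 3.58.1 (R 4.3.3, trend over intensity) on log2(FPKM + 1) for genes whose mean reached 1 FPKM, each embryonic stage apart, the 13 adult libraries together with +/+ and D/+ as controls, and the 12 embryonic libraries together for the stage term. Fold changes on this scale understate those of low genes. Adjusted p-values are Benjamini-Hochberg over all genes, called under 0.05. Barcodes with at least 500 genes were kept (2555 of 2563 and 3464 of 3469); UMIs were summed per library and class in Python 3.11.15. The automatic threshold of scrublet (scanpy 1.11.5) marked 2 and 20 barcodes, too few in the first library to be working, so no doublets were removed in the values reported. The fits were tested on simulated data, but no outcome of that test is given here, so it bears on no result above.

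The globin genes and all gene lists were chosen with earlier results of these data known. Named by rule were all 9 globin genes, list genes called or with the 3 smallest p per list (of these a selection is printed), the 5 genes most like summed globin, and the 10 genes most confined to globin-rich barcodes; some genes that the rule names are not reported here. Genes and barcodes named otherwise were chosen after their values were seen. Alternatives were pseudocount 0.1, no filter, median-ratio scaling, scaling without globin, merged copies, all libraries in a single fit, a Y-linked covariate, a replicate block, other adult controls, a term for 2 sets of adult libraries and leaving out each library. For single cells they were limits of 10% and 50%, all barcodes, removal of likely doublets and thinning to 5000 UMIs.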

Additional observations from a re-analysis of the deposited data

Results flagged for a closer look

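Samples far from the others of their group were sought by Dixon's criterion in 27 groups of adult globin values, where chance alone gives about 1 in 20. Hba-a2 in +/+ replicate 2 (81.9 FPKM) was far above the other 4 libraries labelled +/+. Hba-a2 in D/D replicate 3 was listed at 0.02 FPKM where the other 5 D/D libraries had 0.03, a step of the last printed digit. In that library, which held 1.18 FPKM of Hba-a1, the Hba-a2 share of adult alpha FPKM was 1.67%, far above the other D/D libraries. Hbb-bs in D/D replicate 2 was 19.6 FPKM, against 0.01 in the other D/D libraries, and its share of adult beta FPKM there, 27.1%, was likewise apart. The Hbb-bs share in +/+ replicate 4 was 0.0729%, apart from the other +/+ libraries at a level of 0.01 FPKM. These values concern the division between near-identical copies or levels close to 0.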

How the results depend on the processing

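Of 184 alternatives for the main results, 167 kept their values within the limits set for calling a result moved. At E16.5, 1 globin gene in place of 0 was called with a pseudocount of 0.1 (Hba-a2, log2 difference 9.13), and 0 to 1 when 1 library was left out (1 without F/F replicate 3, Hba-a2 6.65). Without Hbb-b1 and Hbb-b2, embryonic genes made up 100% of beta FPKM in F/+ and F/F at E11.5, 23.2% in F/+ and 8.28% in F/F at E16.5. With a limit of 50% globin, the share of barcodes, the embryonic beta share and the embryonic alpha share were 36.4%, 94.26% and 47.2% in the library labelled +/+ and 35.2%, 94.77% and 46.05% in that labelled F/F. Removal of likely doublets gave an embryonic alpha share of 47.3% in +/+. Thinning to 5000 UMIs gave embryonic beta shares of 94.3% and 94.73% and embryonic alpha shares of 46.07% and 44.9% in +/+ and F/F.

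Of 586 alternatives for single genes and sums, 46 changed sign, all for differences that were not called, and no cause was tested. At E11.5, scaling without globin gave Hba-x -0.30, Hbb-b1 -0.20, Hbb-b2 -0.33, Hbb-bh1 -0.12 and adult beta -0.24, and the Y-linked covariate gave -0.17, -0.52, -0.61, -0.076 and -0.55. Leaving out F/+ replicate 1 and F/F replicate 2, chosen after seeing the data, gave Hbb-y 0.28. At E16.5 the covariate gave Hba-x 0.074. For the stage term, scaling without globin gave Hba-x 0.20 and Hbb-bh1 0.12. Leaving out each library gave, at E11.5, Hba-a1 -0.10 to 2.32, Hba-x -0.30 to 0.39, Hbb-b1 -1.02 to 1.097, Hbb-b2 -1.01 to 0.83, Hbb-bh1 -0.37 to 0.84, Hbb-y -0.56 to 0.50 and adult beta -1.02 to 1.03. It gave Hba-x -0.83 to 0.47 at E16.5. At 8 weeks it gave Hba-a1 -0.77 to 0.60, adult alpha -1.24 to 0.20 and adult beta -1.28 to 0.036. For the stage term it gave Hba-x -0.90 to 0.40, Hbb-bh1 -0.84 to 0.37, Hbb-y -0.033 to 1.12 and adult beta -0.089 to 1.96.

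Same-numbered libraries had r of -0.04, -0.02 and 0.08 at E11.5 and -0.08, 0.04 and -0.43 at E16.5. At 8 weeks r ranged from -0.42 to 0.53 over 9 pairs, with 5 above 0.1 (+/+ 1 with D/D 1 0.53, +/+ 2 with D/D 2 0.42). Since not every pair was above 0.1, the numbers were not taken to pair libraries. With the replicate number as a block 0 globin genes were called in each comparison. Depth is unknown in bulk, so values at 0 to 0.04 FPKM carry no limit. Hbb-bs had no value at 8 weeks without D/D replicate 2, being under the minimum.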
